A study of Mus musculus with 2 samples.

Results

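The mitochondrial ribosomal protein genes are the nuclear genes named Mrpl or Mrps for the large and the small subunit of the mitochondrial ribosome. They were chosen by name alone, as every row of the deposited gene table whose symbol began with Mrpl or Mrps followed by a number. The rule found 76 of 23283 gene rows, 47 of them large subunit (Mrpl) and 29 small subunit (Mrps) genes. All 76 matched a protein-coding gene of GENCODE vM21, on 17 chromosomes, with 10 on chromosome 11, 8 on chromosome 17 and 7 on chromosome 6.

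Mitochondria keep a small genome that encodes core subunits of the respiratory chain together with the ribosomal and transfer RNAs needed to translate them. The proteins of the ribosome that does this work are encoded in the nucleus, made in the cytosol and imported. Some descend from bacterial ribosomal proteins and others were added in the mitochondrial lineage. Hepatocytes are rich in mitochondria, and the liver depends on them for fatty acid oxidation, the urea cycle and the supply of ATP for glucose production.

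RNA came from perfused livers of male C57Bl/6 mice aged 6 months. All mice were labelled Akt2-/- (without the insulin-responsive kinase Akt2 in every tissue) and Akt1F/F (with floxed alleles of the related kinase Akt1). The second group also carried Alb-Cre, in which the albumin promoter drives the Cre recombinase in hepatocytes. Pooling the mRNA of 4 livers of each genotype gave 1 control library (Akt1F/F;Akt2-/-) and 1 Alb-Cre library (Akt1F/F;Akt2-/-;Alb-Cre). The comparison asks what the added targeting of Akt1 in hepatocytes does in livers labelled Akt2-/-. With 1 library per genotype no difference has a replicate check, and the spread between mice is hidden by the pooling.

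Levels are given in FPKM as deposited by the authors, which divide the fragments of a gene by its transcript length and by a library total, so levels of different genes are compared here per transcript length. A difference is given as the log2 of (Alb-Cre FPKM + 1) over (control FPKM + 1). A gene was measured if the authors' status was OK and it had at least 1 FPKM in a library, which all 76 genes and 11406 rows in all did. Akt1 had 23.7 FPKM in the control and 17.1 with Alb-Cre (log2 ratio -0.45), and Akt2 had 37.5 and 33.5, so the Akt2 value does not show the loss that both labels state. Whole-gene values are a weak check, since the sources used here do not say which exons the alleles remove, and the groups are called by their labels throughout. Hepatocyte markers were abundant, with 13 of 13 measured and a summed level of 14954 FPKM in the control and 13557 in the Alb-Cre library. They did not move together, with 4 above 0 and 9 below, from Foxa2 at -0.87 to Tat at 1.11, the only 1 past 2-fold. Ttr, which weighs most in the sum, had 6489 and 3627 FPKM. Markers of Kupffer cells and macrophages summed to 202 and 495 FPKM, with 8 of 14 past 2-fold towards the Alb-Cre library. Endothelial markers summed to 98.7 and 128 FPKM (1 of 8 past 2-fold), stellate markers to 109 and 182 (0 of 8) and the 4 measured of 9 lymphocyte markers to 2.33 and 6.22. None of the 58 marker genes was at 0 in either library. Whether the makeup of the tissue bears on the ribosomal values was not tested, and in bulk RNA fewer cells of a type and less RNA per cell cannot be told apart.

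Promoters are shown first, because the regulators known for nuclear genes of mitochondrial proteins bind there, and because they show the arrangement of the genes. RefSeq (GRCm38.p6) gives a window of 250 bases before and 50 after the transcription start for 67 of the 76 genes. A set of 3 short motifs was searched on both strands, GCATGCGC for NRF1, CCGGAAG for ETS factors such as GABP, and AAGATGGCG for YY1. Capitals mark matches on either strand, and each window reads 5′ to 3′ along its gene.

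The window of Mrps11 (chr7:78782881-78783180, plus strand) is shown because it also holds the start of Mrpl46, a large subunit gene that runs the other way. The capitals are a YY1 match on the opposite strand.

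Mrps11: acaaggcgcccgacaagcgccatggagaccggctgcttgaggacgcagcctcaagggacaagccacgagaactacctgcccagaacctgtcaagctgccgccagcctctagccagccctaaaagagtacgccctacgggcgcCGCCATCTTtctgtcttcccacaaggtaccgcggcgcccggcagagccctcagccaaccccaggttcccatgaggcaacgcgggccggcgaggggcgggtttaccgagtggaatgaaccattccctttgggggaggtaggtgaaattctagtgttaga

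The windows of Mrpl32 (chr13:14612988-14613287, minus strand) and Mrpl43 (chr19:45006393-45006692, minus strand) hold several matches to 1 motif. Mrpl32 has 4 NRF1 matches, a pair of them overlapping since the core of the motif is its own reverse complement, and Mrpl43 has 2 ETS matches.

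Mrpl32: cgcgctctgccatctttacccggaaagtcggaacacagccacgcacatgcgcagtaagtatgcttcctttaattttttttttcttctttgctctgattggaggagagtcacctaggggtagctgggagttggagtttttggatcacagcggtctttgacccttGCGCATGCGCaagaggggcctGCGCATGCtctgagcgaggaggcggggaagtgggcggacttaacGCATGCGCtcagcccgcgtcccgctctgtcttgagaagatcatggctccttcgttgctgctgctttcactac

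Mrpl43: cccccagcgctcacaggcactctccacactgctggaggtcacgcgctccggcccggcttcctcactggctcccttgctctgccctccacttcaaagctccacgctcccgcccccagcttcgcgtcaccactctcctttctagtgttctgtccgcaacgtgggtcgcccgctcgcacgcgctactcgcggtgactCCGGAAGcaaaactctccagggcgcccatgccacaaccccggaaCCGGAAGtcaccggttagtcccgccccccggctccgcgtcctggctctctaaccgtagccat

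Mrpl42 (chr10:95501900-95502199, minus strand) and Mrpl23 (chr7:142532782-142533081, plus strand) had the highest Alb-Cre to control ratios of all 76 genes, as described further on. Mrpl42 has a YY1 match that begins 28 bases into the transcript, and the Mrpl23 window has no match to any of the 3 motifs. In GENCODE Mrpl23 starts at 142532686, before the first base of its window. The sequence upstream of that GENCODE start was therefore not searched.

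Mrpl42: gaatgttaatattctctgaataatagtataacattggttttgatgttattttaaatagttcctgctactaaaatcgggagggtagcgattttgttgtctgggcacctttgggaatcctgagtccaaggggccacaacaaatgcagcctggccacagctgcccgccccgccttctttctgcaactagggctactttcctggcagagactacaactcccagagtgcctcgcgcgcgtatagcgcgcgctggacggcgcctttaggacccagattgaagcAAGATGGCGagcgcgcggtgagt

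Mrpl23: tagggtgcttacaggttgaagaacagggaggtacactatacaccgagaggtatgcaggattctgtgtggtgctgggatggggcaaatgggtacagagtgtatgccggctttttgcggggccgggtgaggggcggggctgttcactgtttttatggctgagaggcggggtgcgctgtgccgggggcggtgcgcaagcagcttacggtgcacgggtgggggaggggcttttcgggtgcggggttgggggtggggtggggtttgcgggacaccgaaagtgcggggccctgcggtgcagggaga

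At least 1 of the 3 motifs was present in 34 of the 67 windows (50.7%). Among 8113 measured genes with a RefSeq window the share was 27.3%, and among all 27025 genes with one it was 13.6%. The ETS motif was found in 24 windows (35.8%, against 20.2% of measured genes), the NRF1 motif in 8 (11.9%, against 6.04%) and the YY1 motif in 8 (11.9%, against 3.66%). The sequence TATAAA at -45 to -11 was found in 0 of the 67 windows and in 1.87% of the windows of measured genes. Nuclear-encoded respiratory chain genes (62 windows) had the ETS motif in 25.8%, NRF1 in 16.1% and YY1 in 11.3%. Cytosolic ribosomal protein genes (56 windows) had them in 39.3%, 5.36% and 5.36%. A match describes letters in a window and is not a bound site.

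**Figure D1:**
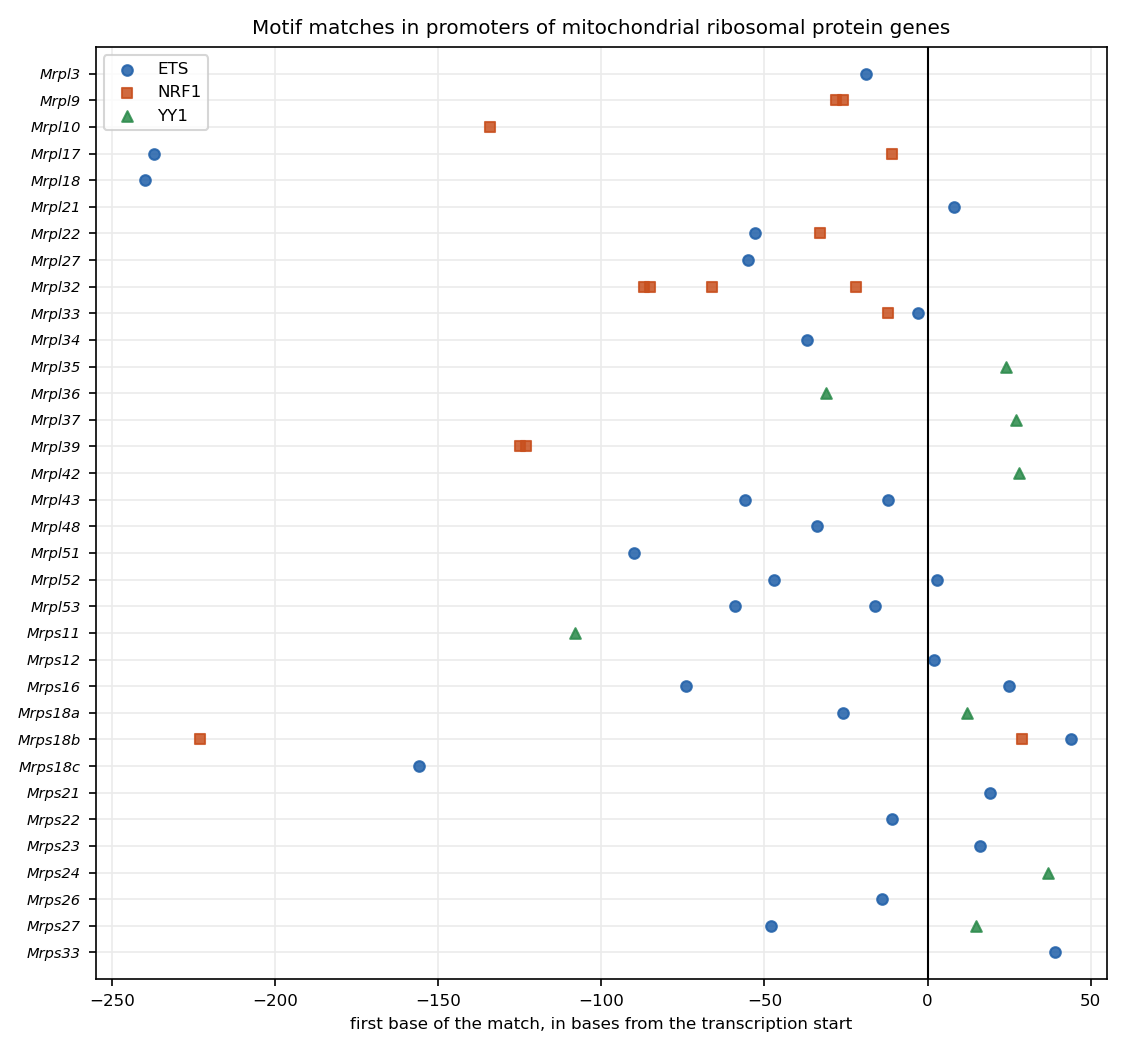
Position of each ETS, NRF1 and YY1 match (circles, squares, triangles) in the promoter windows of the 34 genes that have one, in bases from the RefSeq transcription start (vertical line at 0). Of 28 ETS matches 25 lie between -100 and 50, and 6 of 8 YY1 matches lie downstream of the start.

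The matches were not spread evenly over the windows, as the plot of match positions shows. ETS matches had a median position of -22.5 and NRF1 matches (14 in all, in 8 genes) one of -49.5. YY1 matches had a median position of 19.5, within the first transcribed bases. The genes with an NRF1 match had a median log2 ratio of -0.14, against -0.06 for those without. For ETS the medians were -0.11 with and -0.05 without a match, and for YY1 -0.05 and -0.08.

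Genes for the factors and coactivators known to act on such promoters were read from the same libraries. Ppargc1a, the coactivator of mitochondrial biogenesis that is induced in fasted liver, had 2.96 FPKM in the control and 12.5 with Alb-Cre (log2 ratio 1.77). It was the only 1 of the 9 regulator genes at least 2-fold apart. The nuclear receptor gene Esrra had 23.1 and 29.4 FPKM (0.34), and the coactivator genes Ppargc1b and Pprc1 had ratios of 0.23 and 0.06. Nrf1, whose product binds the NRF1 motif, had 3.28 and 3.82 FPKM (0.17). Gabpa, the DNA-binding subunit of GABP, had 16.3 and 12.6 FPKM (-0.35), and its partner Gabpb1 had 4.26 and 3.57 (-0.20). Yy1 had 22.2 and 18.5 FPKM (-0.25) and Myc, which also acts on genes of ribosome synthesis, 6.37 and 5.63 (-0.15).

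None of the 76 mitochondrial ribosomal protein genes differed by 2-fold or more between the libraries. Across all measured genes 3.75% had a value with Alb-Cre that was higher by 2-fold or more, and 1.83% one that was lower. At a limit of 1.5-fold the count among the 76 was again 0 in both directions, where 8.87% of all measured genes were higher and 5.8% lower. Their log2 ratios ran from -0.33 for Mrpl49 to 0.45 for Mrpl23, with a median of -0.06, which is also the median of all measured genes. Ratios were above 0 for 26 genes and below 0 for 50 with the values as deposited. With both libraries scaled to the same summed FPKM the median of the 76 was 0.05, with 51 above 0, and with ratios centred on genes of at least 10 FPKM in both libraries it was 0.07, with 53 above 0. These steps moved the median of all measured genes from -0.06 to 0.04 and to 0.07, so a median slightly below 0 as deposited can turn positive with the scaling, while a positive one keeps its sign under these steps.

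The ratios were less spread than those of measured genes in the same level range, which also held for some related lists. Their SD across the 76 genes was 0.146, against 0.646 for the 7698 measured genes whose mean level lay in the same range. That range is not matched on level, with a median control level of 13.4 FPKM against 33.1 for the 76, and it holds genes at 0 in a library. For the 4964 genes of at least 10 FPKM in both libraries the SD was 0.436. The lower and upper quartiles of the 76 genes were -0.15 and 0.04, against -0.27 and 0.07 in the level range. Of the 76 genes, 69 (90.8%) were within 0.25 of 0 as deposited, against 58.7% in the level range, where 41.3% of genes were at 0.25 or more in size. Respiratory chain genes had a like spread, with an SD of 0.142 and 88.0% within 0.25. Cytosolic ribosomal protein genes had an SD of 0.286, with Rps27 at -1.98 among them, and 32.1% within 0.25. Their interquartile range was 0.162 around a higher median, against 0.189 for the 76 genes. The 9 regulator genes had an SD of 0.641, near that of the level range. The limit of 0.25 was chosen after the values were seen. As deposited, the 7 of the 76 genes beyond it were Mrpl23 and Mrpl42 above and Mrpl49, Mrps7, Mrpl43, Mrpl39 and Mrpl53 below. Just inside it were Mrps10 at -0.25 and Mrpl54 at 0.22. This set depends on the scaling. Centred, the genes below ran from -0.19 (Mrpl49) to -0.12 (Mrpl53), inside the limit. Mrpl54, Mrps35, Mrpl13, Mrpl45, Mrps15, Mrps9 and Mrps6 then joined Mrpl23 and Mrpl42 above it.

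**Figure D2:**
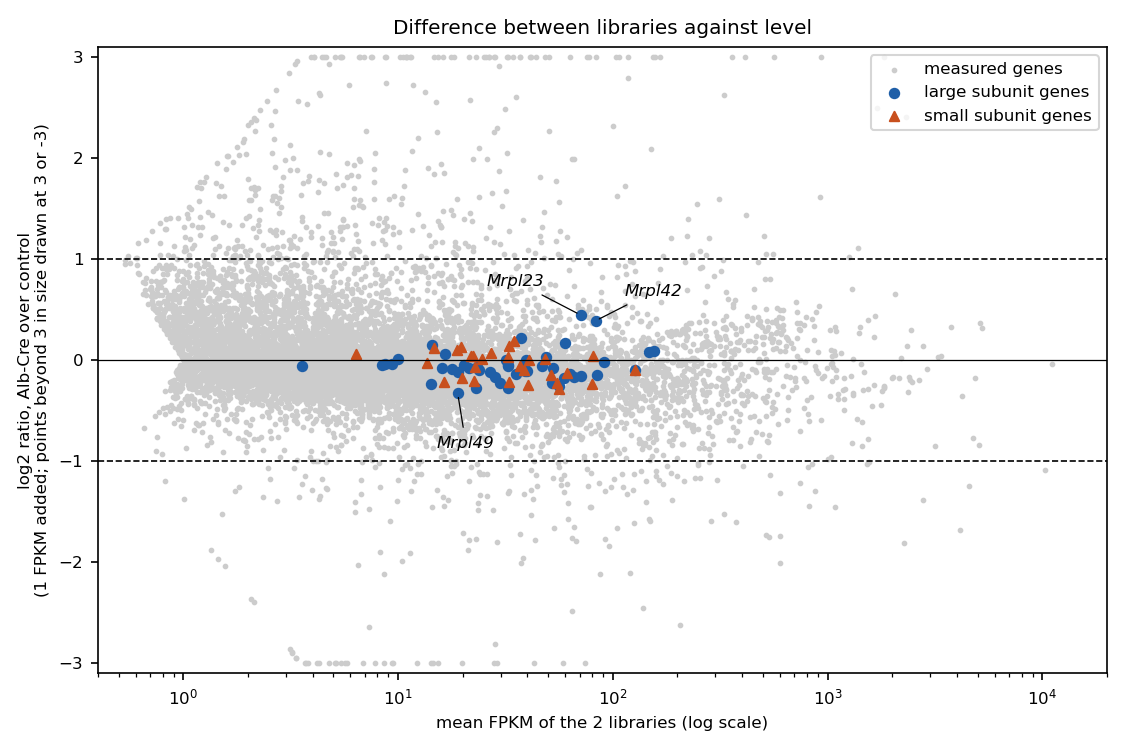
Log2 ratio of Alb-Cre over control (vertical axis, 1 FPKM added, as deposited) against the mean FPKM of the libraries (log axis) for all measured genes (grey), large subunit genes (blue circles) and small subunit genes (orange triangles), with dashed lines at 2-fold. All 76 genes lie between -0.33 and 0.45, and Mrpl23 and Mrpl42 are the highest.

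Of the 76 genes, 0 were called different between the libraries in the authors' deposited table, against 0.673% of the 14868 rows of status OK. The lowest p-value of the 76 in the authors' deposited table was 0.319, for Mrpl23, and the highest was 0.996, for Mrpl9, with q-values of 0.999. Without replicates such values come from a modelled spread, so they compare libraries and not genotypes.

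Levels spanned 41.3-fold in the control and 46.1-fold in the Alb-Cre library per transcript length, from Mrpl19 at 3.67 and 3.49 FPKM to Mrpl52 at 151 and 161. The order of the genes was nearly the same in both libraries, with a Pearson r of 0.990 between log2 levels across the 76 genes. Across 7649 genes of the same level range r was 0.897, and in both cases the genes share their libraries and are no replicates. Shorter transcripts had higher levels (Spearman rho of -0.44 between mean FPKM and median coding transcript length, from 405 to 6073 bases, across the 76 genes). FPKM are themselves divided by a transcript length, so this relation may be partly built in. It was not computed over all measured genes. The ratio followed neither level (rho of -0.10) nor length (rho of 0.08).

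**Figure D3:**
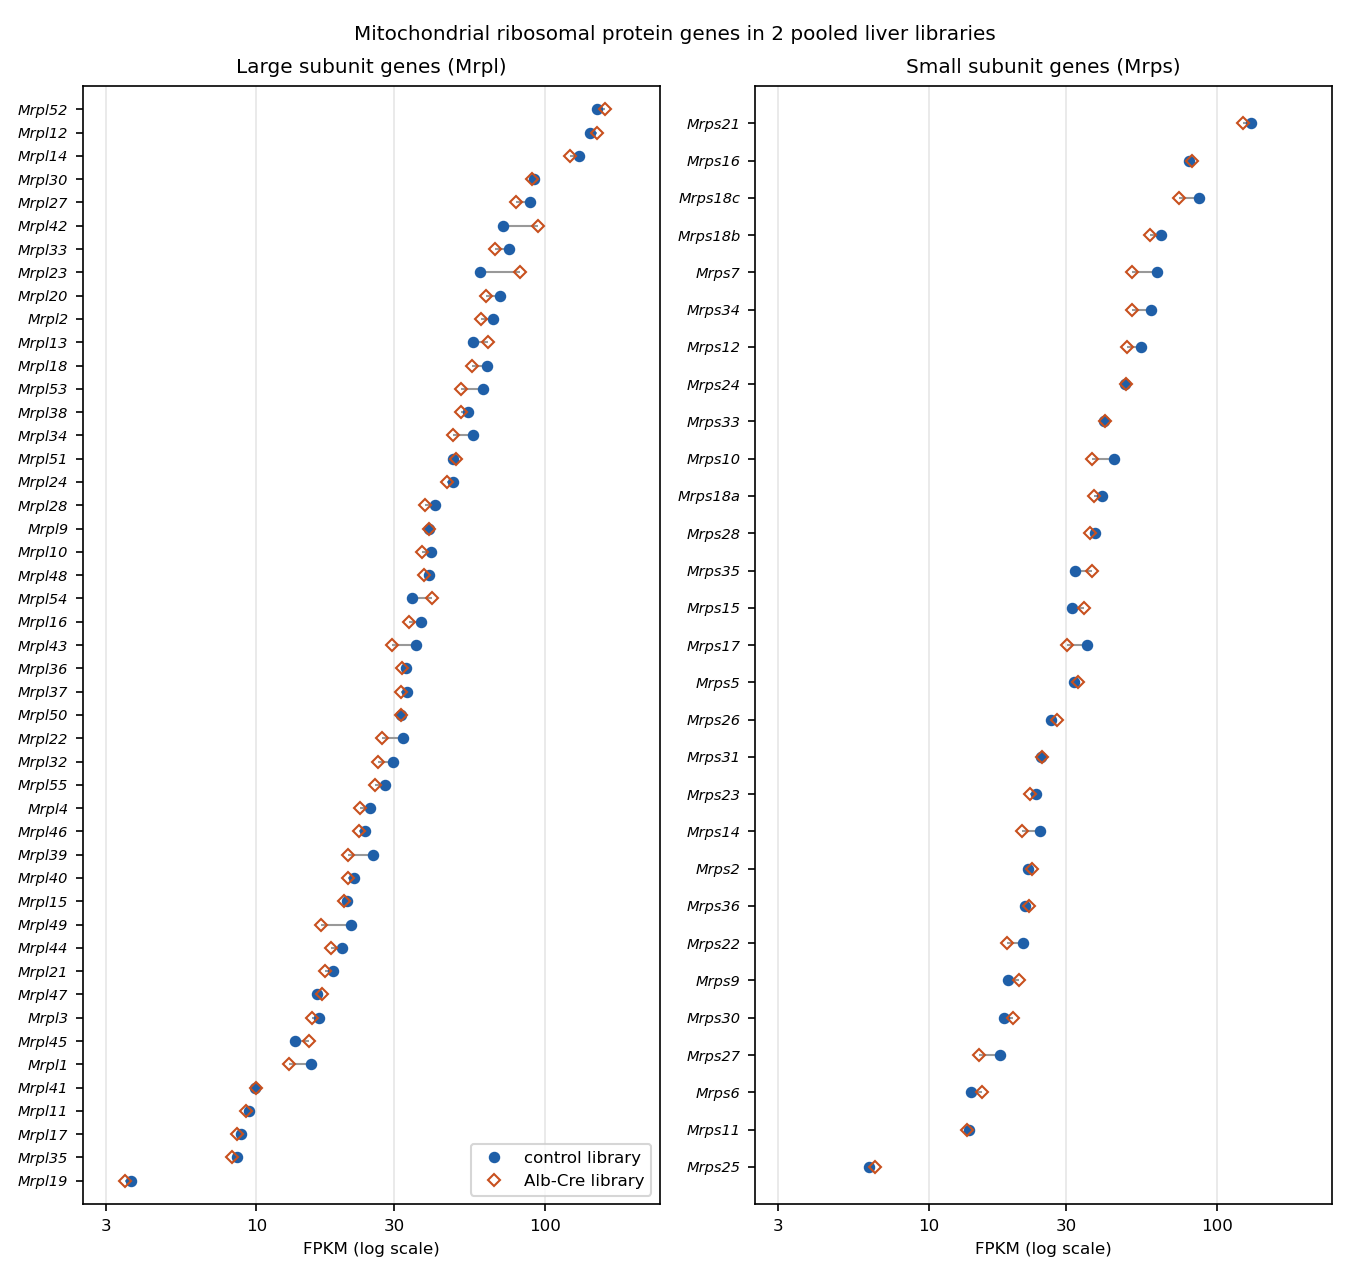
FPKM (log axis) of each large subunit gene (left) and small subunit gene (right) in the control library (filled circles) and the Alb-Cre library (open diamonds), ordered by mean level, 1 pooled library per genotype and so no error bars. The 2 symbols of a gene are close together at every level, with the widest gaps at Mrpl23, Mrpl42 and Mrpl49.

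The large subunit holds the peptidyl transferase centre, the stalk that recruits translation factors and the tunnel through which the new chain leaves. Its 47 genes had control levels of 3.67 to 151 FPKM (median 34.6) and Alb-Cre levels of 3.49 to 161 (median 32.0). Their median log2 ratio was -0.07, and 12 of 47 were above 0, as deposited; rescaled or centred, the median was 0.04 or 0.06. The small subunit, which binds mRNA and holds the decoding centre, had control levels of 6.18 to 131 FPKM (median 32.0) and Alb-Cre levels of 6.50 to 123 (median 32.8). Its median ratio over 29 genes was -0.02, with 14 above 0, and 0.09 or 0.11 when rescaled or centred.

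The small subunit median exceeded that of the large subunit by 0.05. The means were nearer to each other, at -0.05 for the small and -0.06 for the large subunit. Ratios of single genes had an SD of 0.153 in the large and 0.136 in the small subunit. Summed over genes, small subunit FPKM were 0.545 times those of the large subunit in the control library and 0.528 times in the Alb-Cre library. By their medians the same ratio was 0.924 and 1.02, so the sum and the median moved in opposite directions. All genes together made up 0.520% of the summed FPKM in the control and 0.548% in the Alb-Cre library.

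Within the large subunit, the stalk genes had unlike levels and similar ratios. Mrpl12, the counterpart of bacterial L7/L12, which is present in several copies per ribosome, had 144 FPKM in the control and 152 with Alb-Cre (log2 ratio 0.08). Mrpl10, which anchors it, had 40.3 and 37.4 FPKM (-0.10), and Mrpl11, at the base of the stalk, had 9.46 and 9.19 (-0.04). Only Mrpl52, which has no bacterial counterpart, had more FPKM than Mrpl12. Mrpl14 followed with 131 and 123 FPKM (-0.09), then Mrpl30 with 91.8 and 90.5 (-0.02) and Mrpl27 with 88.6 and 79.7 (-0.15). The 5 lowest large subunit levels, those of Mrpl19, Mrpl35, Mrpl17, Mrpl11 and Mrpl41, were all below 10 FPKM in the control library, and their ratios lay between -0.06 and 0.01.

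Several proteins line the exit of the tunnel, and Mrpl23 is 1 of them. Mrpl23 (chr7:142532686-142540747, mm10, plus strand) had 59.8 FPKM in the control and 81.9 with Alb-Cre (log2 ratio 0.45), the highest of the 76 genes. Of all measured genes, 87.8% had a lower ratio. Its neighbours at the exit, Mrpl22 and Mrpl24, had 32.2 and 27.4 FPKM (-0.23) and 47.9 and 45.9 FPKM (-0.06). Mrpl17 and Mrpl47, also at the exit, had 8.81 and 8.58 FPKM (-0.04) and 16.2 and 16.9 FPKM (0.06). Mrpl45, which contacts the inner membrane at the exit, had 13.6 and 15.2 FPKM (0.15). Oxa1l, the insertase that receives new chains there, had 23.3 and 26.3 FPKM (0.16).

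Mrpl23 lies next to the imprinted H19 and Igf2 genes, and its neighbours were read for that reason. H19, 34782 bases from Mrpl23, had 0.0549 FPKM in the control and 206 with Alb-Cre (log2 ratio 7.62). Igf2, 110019 bases away, had 0.0967 and 0.308 FPKM. On the other side Lsp1, a leukocyte gene, had 1.52 and 4.03 FPKM (1.00) and Ctsd, which encodes the lysosomal protease cathepsin D, 244 and 274 (0.16). Nctc1, between Mrpl23 and H19, was at 0 and 0.00595 FPKM. The level of Mrpl23 was therefore far above that of its nearest neighbours in the control library, and any relation of its ratio to theirs was not tested. GENCODE also lists a pseudogene named after Mrpl23, another after Mrpl48 and several after Mrps36, with no row of their own. Reads of these genes and their copies cannot be told apart, and copies under other names were not searched for.

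Mrpl42 (chr10:95480805-95501940, minus strand), a protein without bacterial counterpart, had 71.8 FPKM in the control and 94.3 with Alb-Cre (log2 ratio 0.39). It and Mrpl23 stood apart from the other 74 genes, of which the highest was Mrpl54 with 34.6 and 40.5 FPKM (0.22). Mrps35, described with the small subunit, came next, followed by Mrpl13, which has a bacterial counterpart, with 56.5 and 63.5 FPKM (0.17). Mrpl23, Mrpl42, Mrpl54 and Mrpl13 had their higher value in the Alb-Cre library. Rescaling and centring raise the ratios, so these kept their sign, with Mrpl23 at 0.57 or 0.58 and Mrpl42 at 0.51 or 0.52.

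At the low end, Mrpl49 (chr19:6053622-6057785, minus strand) had 21.2 FPKM in the control and 16.7 with Alb-Cre (log2 ratio -0.33; -0.21 rescaled and -0.19 centred). The deposited table lists it under the same locus as Syvn1, which encodes a ubiquitin ligase of the endoplasmic reticulum, runs on the opposite strand and had 29.3 and 19.6 FPKM (-0.56). The sources used here do not state strandedness, so reads of overlapping genes cannot be told apart. The same holds for 8 others with a joint locus entry, namely Mrpl19, Mrpl24, Mrpl41, Mrpl48, Mrpl53, Mrps6, Mrps25 and Mrps27. Mrpl49 also starts 59 bases from Fau, a cytosolic ribosomal protein gene on the opposite strand, which had 590 and 694 FPKM (0.23). In this pair the mitochondrial gene was lower and the cytosolic one higher in the Alb-Cre library.

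Other large subunit genes with low ratios as deposited had both kinds of ancestry. Mrpl43 had 35.8 and 29.5 FPKM (-0.27), Mrpl39, which resembles a tRNA synthetase, 25.4 and 20.8 (-0.27), and Mrpl53 61.0 and 51.1 (-0.25). None of these 3 has a bacterial counterpart. Mrpl1, Mrpl22 and Mrpl34, which do, had ratios of -0.23, -0.23 and -0.22, as in Mrpl1 with 15.4 FPKM in the control and 13.0 in the Alb-Cre library. Mrpl32, a zinc-binding protein that is cleaved by a mitochondrial protease before assembly and whose window holds the 4 NRF1 matches, had 29.9 and 26.4 FPKM (-0.17).

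In the small subunit, the highest level was that of Mrps21, with 131 FPKM in the control and 123 with Alb-Cre (log2 ratio -0.09). Mrps16 had 79.7 and 81.9 FPKM (0.04). The lowest was Mrps25 with 6.18 and 6.50 FPKM (0.06), followed by Mrps11 with 13.8 and 13.6 (-0.02) and Mrps6 with 13.95 and 15.3 (0.12). In these genes the values of the libraries were close, while Mrps18c, also at the high end, had 86.7 and 73.7 FPKM (-0.23). Mrps27, in which a pentatricopeptide repeat fold binds RNA, had 17.6 and 15.0 FPKM (-0.22).

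Genes of the small subunit head had ratios on both sides of 0. Mrps7 had 62.0 FPKM in the control and 50.8 with Alb-Cre (log2 ratio -0.28), the lowest ratio of the small subunit, and Mrps10, also of the head, had 44.0 and 36.9 (-0.25). Mrps12, at the decoding centre and not counted with the head, had 54.4 and 48.8 FPKM (-0.15). Mrps9, of the head like Mrps7 and Mrps10, had 18.7 and 20.6 FPKM (0.13). Also of the head, Mrps14 had 24.4 and 21.0 FPKM (-0.21), and Mrps24, Mrps31 and Mrps33 had ratios of 0.01 each. The highest small subunit ratio was that of Mrps35, a head protein without a bacterial counterpart, with 32.2 and 36.8 FPKM (0.19). Mrps15 had 31.3 and 34.6 (0.14).

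Mammals have 3 genes for counterparts of bacterial S18, and all 3 had lower values with Alb-Cre as deposited, while Mrps18a turned to 0.03 and 0.04 when rescaled and centred and Mrps18b to 0.01 when centred. Mrps18c had 86.7 and 73.7 FPKM (log2 ratio -0.23), Mrps18b 63.7 and 58.2 (-0.13) and Mrps18a 39.9 and 37.4 (-0.09). Mrps18a and Mrps30 sit in the large subunit of the mammalian structure despite their names, and Mrps36 is a component of the 2-oxoglutarate dehydrogenase complex. Mrps30 had 18.2 and 19.5 FPKM (0.10) and Mrps36 21.5 and 22.2 (0.04). With these genes placed by structure, the small subunit median was -0.04 over 26 genes and the large subunit median -0.07 over 49.

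By ancestry the medians were close. The 47 genes with a bacterial counterpart had a median log2 ratio of -0.08 with 12 above 0, and the 29 without one had -0.05 with 14 above 0. In the large subunit 5 of 29 with and 7 of 18 without a counterpart were above 0, and in the small subunit 7 of 18 and 7 of 11. These counts refer to the deposited scaling.

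Many of these genes start beside another gene. Of the 76, 32 (42.1%) had a GENCODE gene on the opposite strand whose start lay within 1000 bases in a head-to-head arrangement, against 16.3% of 9891 measured protein-coding genes. Pairs that overlap at their starts are included in both shares. Several partners also serve mitochondria. Mrps11 and Mrpl46, whose joint window is printed above, have RefSeq starts 42 bases apart, where their GENCODE starts are 412 bases apart. In GENCODE these genes overlap between their starts, on opposite strands, so reads there cannot be told apart. They had 13.8 and 13.6 FPKM (log2 ratio -0.02) and 23.8 and 22.6 FPKM (-0.07). The distances that follow are from GENCODE. Mrps12 starts 172 bases from Sars2, the mitochondrial seryl-tRNA synthetase gene, which had 6.97 and 6.11 FPKM (-0.16). Mrpl36 starts 29 bases from the complex I gene Ndufs6 (219.6 and 220.2 FPKM, 0.00), and Mrpl47 starts 615 bases from Ndufb5 (118 and 126, 0.09). Mrpl43 starts 779 bases from the gene of the mitochondrial helicase Twinkle, listed under its older symbol Peo1 with 9.13 and 8.13 FPKM (-0.15).

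Partners outside mitochondria included Psma2, a proteasome subunit gene 75 bases from Mrpl32, with 114 and 90.9 FPKM (-0.32). Apba3, 26 bases from Mrpl54, had 18.6 and 17.9 FPKM (-0.05), where Mrpl54 itself had a ratio of 0.22. Of the 30 partners found in the table under the symbol, 0 were at least 2-fold apart, and their ratios ran from -0.38 to 0.35 with a median of -0.06. Pairs with a shared direction and pairs without one both occurred as deposited. Mrpl18 and Tcp1 were both lower and Mrpl47 and Ndufb5 both higher in the Alb-Cre library, while Mrpl49 and Fau differed. The pairs of each kind were not counted, and reads of Mrpl49 cannot be told apart from those of Syvn1.

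Other parts of the mitochondrial translation system were compared by lists. Of 7 mitoribosomal proteins of other names, 1 was above 0, with a median of -0.08 as deposited. Dap3, a small subunit GTP-binding protein, had 11.4 and 10.9 FPKM (-0.06), Ict1, a peptidyl-tRNA hydrolase built into the large subunit, 38.5 and 39.5 (0.03), and Mrp63 11.6 and 9.93 (-0.20). Chchd1 had 58.5 and 51.8 FPKM (-0.17). The 25 measured of 26 assembly and rRNA modification genes had a median of -0.07 with 8 above 0, and 0 reached 1.5-fold. The pseudouridine synthase gene Rpusd3 had 15.3 and 9.96 FPKM (-0.57) and its relative Rpusd4 4.47 and 6.03 (0.36). The methyltransferase gene Trmt61b had a ratio of -0.32 and the helicase gene Ddx28 one of 0.14. Both medians turned positive when rescaled or centred.

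The 13 translation factor genes had a median log2 ratio of -0.14 with 3 above 0 (-0.02 rescaled, -0.01 centred) and 0 past 1.5-fold. Taco1, an activator of the translation of a cytochrome oxidase subunit, had 19.1 FPKM in the control and 13.0 in the Alb-Cre library (-0.52). Gfm2, which acts in ribosome recycling, had 17.3 and 13.2 FPKM (-0.37), while the elongation factor gene Tufm had 70.0 and 76.0 (0.12). The 17 mitochondrial tRNA synthetase genes had a median of -0.16 with 4 above 0 (-0.06 rescaled, -0.03 centred). Nars2, the asparaginyl enzyme, was the only 1 of the 17 past 1.5-fold as deposited, though not when rescaled (-0.49) or centred (-0.45), with 9.41 and 5.92 FPKM (-0.59). Aars2, the alanyl enzyme, had 7.26 and 5.55 FPKM (-0.33). Above 0 were the prolyl enzyme Pars2 with 1.44 and 1.94 FPKM (0.27) and the threonyl enzyme Tars2 with 11.7 and 12.5 (0.09).

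Genes that keep and transcribe mitochondrial DNA had a median log2 ratio of -0.12 over the 16 measured of 19, with 2 above 0 (0.00 rescaled, 0.02 centred). Tfam, which packages and starts transcription of mitochondrial DNA, had 17.1 and 14.6 FPKM (-0.21), and the RNA polymerase gene Polrmt 7.98 and 7.32 (-0.11). Polg, the catalytic subunit of the DNA polymerase, had 12.9 and 15.0 FPKM (0.21), where its accessory subunit Polg2 had 8.48 and 6.55 (-0.33). The mitochondrial topoisomerase gene Top1mt had 12.5 and 12.7 FPKM (0.02). Hsd17b10, a dehydrogenase that is also part of mitochondrial RNase P, had 210.4 and 165.8 FPKM (-0.34).

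The nuclear-encoded respiratory chain and the cytosolic ribosome lay above the mitochondrial ribosome. Of 75 respiratory chain genes 56 (74.7%) were above 0, against 34.2% of the 76 mitochondrial ribosomal protein genes and 41.2% of all measured genes, and their median was 0.09. Atp5g1, an ATP synthase subunit gene, had 286 and 388 FPKM (0.44), and Ndufb3, of complex I, 176 and 142 (-0.31). Atp5b, the catalytic ATP synthase subunit gene, had a ratio of 0.33 and Sdha, of complex II, one of -0.24. Of 78 measured cytosolic ribosomal protein genes 76 (97.4%) were above 0, with a median of 0.31. Rpsa had 296 and 448 FPKM (0.60) and Rps12 had 572 and 853 (0.57). Rpl30 had 12.9 and 12.4 (-0.06), and Rps27, the only 1 at least 2-fold apart, had 17.2 and 3.60 (-1.98). Rescaling and centring raise the ratios, so neither positive median could turn negative (0.21 and 0.43 rescaled, 0.23 and 0.44 centred).

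Ratios of sums do not depend on the scaling of a library. Cytosolic ribosomal protein genes summed to 10.8 times the FPKM of the mitochondrial ones in the control library and to 13.8 times in the Alb-Cre library, a factor of 1.28 between the libraries. For the respiratory chain the sums were 8.02 and 8.79 times those of the mitochondrial ribosome, a factor of 1.10. The median log2 ratios of the mitochondrial and the cytosolic ribosome were -0.06 and 0.31 as deposited, 0.05 and 0.43 rescaled and 0.07 and 0.44 centred. With 1 library per genotype the spread of these ratios between mice is unknown.

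**Figure D4:**
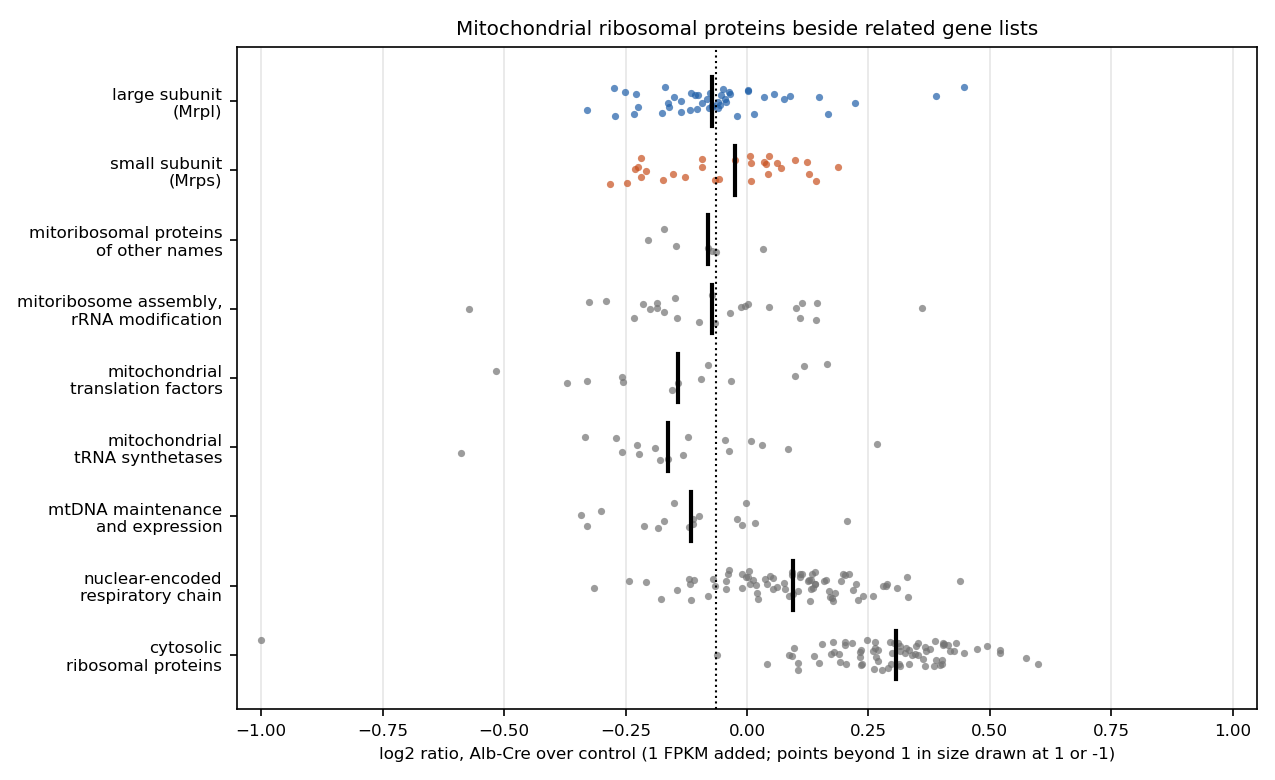
Log2 ratio of Alb-Cre over control (1 FPKM added, as deposited) for each measured gene of the large and small subunit and of 7 related lists, with a bar at each median and a dotted line at the median of all measured genes (-0.06). The mitochondrial ribosome has medians of -0.07 and -0.02, which rescaling or centring moves above 0, and the cytosolic ribosome has one of 0.31.

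Depth was read from the lowest values. Single reads were visible as steps, with 67.1% of low control values and 70.0% of low Alb-Cre values within 0.15 reads of 1, 2 or 3 reads, where an even spread would give 25.7%. On this estimate 1 read in a 1 kb transcript was worth 0.00783 FPKM in the control and 0.00711 in the Alb-Cre library, a depth 1.10 times higher in the latter. The 76 genes would then have had 743 to 29628 reads each, and a counting error of the log2 ratio of 0.01 to 0.07 (median 0.03). Of the 76 ratios, 49 lay more than 2 such errors from the median of the 76, Mrpl23 and Mrpl42 (counting errors 0.03 and 0.02) among them. The same count was not made over all measured genes, so it gives no trait particular to the 76. The read numbers use GENCODE transcript lengths, which may differ from those of the authors. The counting error covers neither mice nor library preparation.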

How the data were processed

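Liver RNA of 2 genotypes was sequenced as 1 pooled library each. Per the submitters' processing notes, the tools were Cuffdiff 2.1.1, TopHat2 2.0.8 and FastQC on build mm10, given without role or order. The sources used here do not give the annotation, the strandedness, the scaling or the read totals. Deposited by the authors was 1 table of 23283 gene rows, which holds FPKM per library and, per the file headers, their p-value and q-value, a status and a call. FPKM are scaled by transcript length and library, so they hide the read count and any change in total RNA.

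Log2 ratios of Alb-Cre over control were computed with 1 FPKM added, over rows of status OK with at least 1 FPKM in a library. A gene was called at 2-fold, and a second limit was 1.5-fold. No p-value was computed, since each genotype is 1 library. The genes, the lists and the limits were chosen with earlier results of these data known. Every Mrpl and Mrps gene could be named. Of the related lists the 2 highest and 2 lowest ratios and all regulators were set by rule. Other examples were picked after their values were seen, for their known function or position. Lists held symbols current or as in the table, and 5 listed genes had no row. The computation was tested on simulated data. Gene positions and head-to-head starts come from GENCODE vM21 and promoter windows from RefSeq GRCm38.p6, matched by symbol. Python 3.11.15, pandas 2.3.3, numpy 2.4.6 and matplotlib 3.10.9 were used. The alternatives were pseudocounts of 0.1 and 5 FPKM, other minimums, rescaled or centred values, rows of any status, joined rows left out, limits of 1.5-fold and 4-fold, means, subunits by structure and added proteins of other names. Leaving out genes that share a locus entry was chosen after seeing the data.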

Additional observations from a re-analysis of the deposited data

How the results depend on the processing

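Over 21 values and 14 alternatives, 259 recomputed values kept to within 0.1 of the log2 value (1.5 times for a count) and 33 moved further. Many could not move. Limits of 1.5-fold and 4-fold do not enter medians or single ratios, so those values were fixed in advance. All 76 genes were measured with status OK, so a lifted minimum or rows of any status could not change them either. Values that moved did so under rescaling or centring, and the regulator median also with a minimum of 5 FPKM or a mean. Counts of genes past 2-fold and 1.5-fold were 0 under every alternative run. At 1.5-fold the margin was small, since Mrpl23 was at 0.581 when centred and the limit is 0.585. Rescaling moved the median log2 ratio of all 76 genes from -0.06 to 0.0465, of the large subunit from -0.07 to 0.0421 and of the small subunit from -0.02 to 0.0880. Centring moved them to 0.0719, 0.0621 and 0.110. The small minus large subunit difference ran from 0.01 to 0.05. Without the 9 genes that share a locus entry the medians were -0.07, -0.08 and -0.04. No paired analysis was possible because each genotype is 1 pooled library without a replicate number, and for the same reason no replicate could be left out. Depth limits the weakest genes most, with a counting error of 0.07 for Mrpl11 and Mrpl41. The spread between mice and library preparation is unknown.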
